A study of Mus musculus with 14 samples.

Results

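Amino acid and peptide transporter genes were followed in the ileum mucosa of mice that lack NCoR1, a corepressor of nuclear receptors, in their intestinal epithelial cells (IECs). Members were the protein-coding genes of the solute carrier families Slc1a, Slc3a, Slc6a, Slc7a, Slc15a, Slc36a, Slc38a and Slc43a with at least 100 counts over all samples. Of 66 genes with such names, 46 were kept from a table of 54532 genes and 20 had fewer counts. Slc1a2 with 102 counts and Slc36a2 with 121 lay just inside this limit, and Slc1a7 with 97 and Slc38a8 with 96 just outside. The names left out Slc6a20a, a proline carrier of the brush border with 40926 counts, which is described with the partners of the members.

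Protein is absorbed in the small intestine as free amino acids and as short peptides, each through its own carriers in the brush border of enterocytes. Some of these carriers need a second subunit to reach the membrane, as a light chain of the Slc7 family pairs with a heavy chain of the Slc3 family. Amino acids leave the cell across the basolateral membrane by exchangers and by facilitated efflux, and other carriers act in lysosomes, in crypt cells or in neurons.

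The study compared 7 IKO mice, in which Cre under the villin promoter deletes the floxed NCoR1 alleles in IECs, with 7 WT mice, which carry the same floxed alleles without the Cre. All were male and had eaten a diet with 60% of its energy from fat (HFD) for 15 weeks. The animal methods put them at 7 to 8 weeks old when diets were started, while a scheme of the experiments has 9-week-old mice and 3 weeks of chow before the HFD. RNA of the ileum mucosa was sequenced, with 1 library per mouse. Mucosa holds cells other than IECs, and in bulk RNA fewer cells of a type and less RNA per cell cannot be told apart.

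The libraries held 14749669 to 21557468 counts. The level of Ncor1 was 106 to 195 CPM (counts scaled to library size with TMM factors) in WT and 31.7 to 64.0 in IKO mice, with no overlap, and its log2 fold change was -1.41 (SE 0.18, edgeR adjusted p = 0.00051). Epithelial markers were high in all samples, with the 9 enterocyte genes summing to 10590 to 31048 CPM, and the 8 pancreatic genes summed to at most 15.2 CPM. Markers of T cells summed to 78.0 to 260 CPM and those of plasma and B cells to 90.4 to 827 CPM, so the RNA was not from epithelium alone. The share of mitochondrially encoded genes was 50.3% in IKO 4, 23.9% in WT 3 and 3.49% to 10.3% in the other 12 libraries. WT 4 held 11169 CPM of 8 smooth muscle genes against at most 826 elsewhere. Medians of the member groups are given with and without IKO 4.

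Transporter RNA was dominated by a few genes. On the deposited FPKM scale, which divides by gene length, the 10 highest members held 80.5% to 92.6% of all member FPKM in the WT and 88.6% to 91.4% in the IKO mice. The highest was Slc6a8, the creatine carrier, at 212 ± 82.5 FPKM (SD, n = 7) in WT mice. Slc6a19, the main carrier of neutral amino acids, followed with 184 ± 80.8 FPKM, and Slc15a1, the carrier of dipeptides and tripeptides, with 139 ± 71.6 FPKM. The cystine and dibasic amino acid carrier of the brush border was present in both its subunits, Slc7a9 at 86.6 ± 28.0 and Slc3a1 at 71.2 ± 54.9 FPKM. Among basolateral genes, the heavy chain Slc3a2 was at 86.1 ± 42.6 FPKM and its light chains Slc7a7 at 62.1 ± 29.3 and Slc7a8 at 50.3 ± 35.0. In WT mice 16 members exceeded 10 FPKM and 19 were under 1 FPKM.

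**Figure D1:**
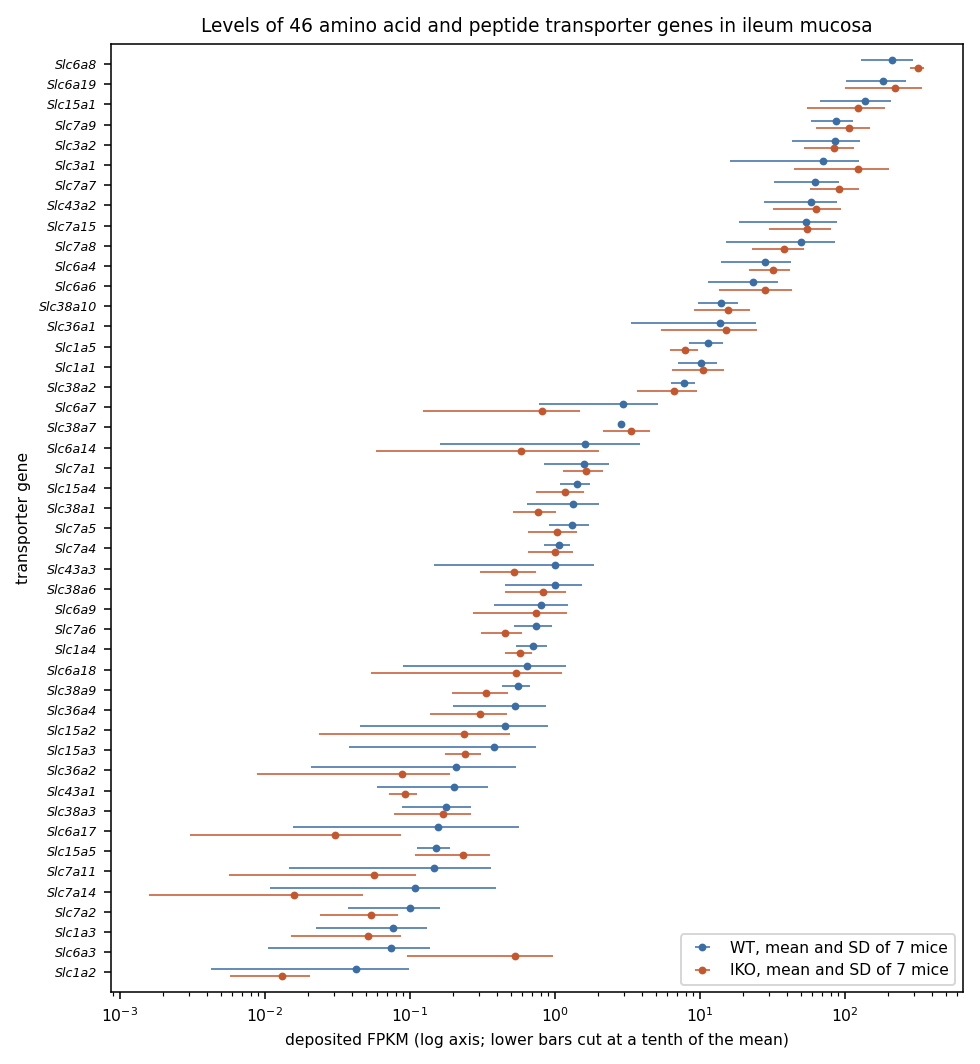
FPKM of the 46 members (log axis), with points for the mean and lines for the SD of 7 WT (blue) and 7 IKO (orange) mice, ordered by the WT mean and with lower lines cut at 0.1 of the mean. The 10 genes at the top hold at least 80.5% of the member FPKM in every mouse.

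The order among the highest members was loose. Slc6a19 was above Slc15a1 in 7 of 7 WT mice, and the mean of that difference, 0.46 on the log2 scale, exceeded its SD of 0.35. For the other 8 neighbouring pairs among the first 10 the mean difference was smaller than its SD. Slc6a8 was above Slc6a19 in only 4 of 7 WT mice, and Slc3a2 above Slc3a1 in 3 of 7. Among the next 10 pairs, Slc6a6 exceeded Slc38a10 and Slc38a2 exceeded Slc6a7 by more than the SD, each in 6 of 7 WT mice.

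Sequences before the start of Slc3a1 and Slc7a9 are shown because these genes encode the 2 subunits of 1 transporter, and the ratio of their RNA differed between mice more than did that of any other 2 highly expressed partners. The 250 bases before the first listed start were taken from RefSeq (GRCm38.p6), on the plus strand, at chr17:85028097-85028346 for Slc3a1 and chr7:35448842-35449091 for Slc7a9. Capitals mark the letters CAAAGT, a core of sites of the HNF4 receptors, which begin 39 bases before the Slc3a1 start. In Slc7a9 they mark TGACCT, the reverse complement of the nuclear receptor half-site AGGTCA, 63 bases before the RefSeq start. The annotation of the counts starts Slc7a9 earlier, at chr7:35448796, so this window lies inside the gene as counted.
Slc3a1: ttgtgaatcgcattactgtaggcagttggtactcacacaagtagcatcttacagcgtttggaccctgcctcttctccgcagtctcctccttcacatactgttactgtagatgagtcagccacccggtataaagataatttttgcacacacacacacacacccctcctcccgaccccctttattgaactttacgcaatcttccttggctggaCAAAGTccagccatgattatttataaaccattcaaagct
Slc7a9: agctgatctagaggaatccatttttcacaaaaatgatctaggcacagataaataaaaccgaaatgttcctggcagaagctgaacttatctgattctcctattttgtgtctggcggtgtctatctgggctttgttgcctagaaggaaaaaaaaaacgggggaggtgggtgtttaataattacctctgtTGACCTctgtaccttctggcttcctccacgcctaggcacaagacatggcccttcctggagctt
Both motifs are common. Searched on both strands, AGGTCA was in 14% of 32851 promoter windows of this length and in 13.3% of the 45 windows of the 33 members with an entry. For CAAAGT these shares were 12.6% and 8.89%. GTTAAT, the half-site of HNF1 factors, was in 6.43% and 6.67%, and TGATGNAA, the core of ATF4 sites, in 3.45% and 6.67%. A match to these letters is a description and was not tested as a binding site.

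The comparison of genotypes asked which transporter genes changed in the absence of NCoR1. Of the 46 members, 39 passed the filter on low counts, and 1 of these, Slc6a7, was called lower and 0 higher at an adjusted p under 0.05 (quasi-likelihood test of edgeR, adjusted by Benjamini-Hochberg over 13846 genes). That is 2.56% of the members tested, against 8.67% of all genes tested, with 4.38% called higher and 4.28% lower. At an unadjusted p under 0.05, 1 member was higher and 6 were lower, where 30.4% of all genes passed, 11.9% higher and 18.5% lower. DESeq2 called 1 member higher, Slc6a3, which is not among the 39, and 1 lower, Slc6a7 (13.8% of all genes, 6.41% higher and 7.36% lower). With sample quality weights, limma-voom called 1 higher, Slc6a8, and 1 lower, Slc6a7 (13.6% of all genes, 7.17% higher and 6.47% lower). The fitted difference was above 0 for 14 and below 0 for 25 members, with a median log2 fold change of -0.21, which was -0.10 without IKO 4. Over all genes the median was -0.09 and 43.5% were above 0. Values of WT and IKO mice were fully apart for 0 of the 39 members, against 3.1% of all genes.

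**Figure D2:**
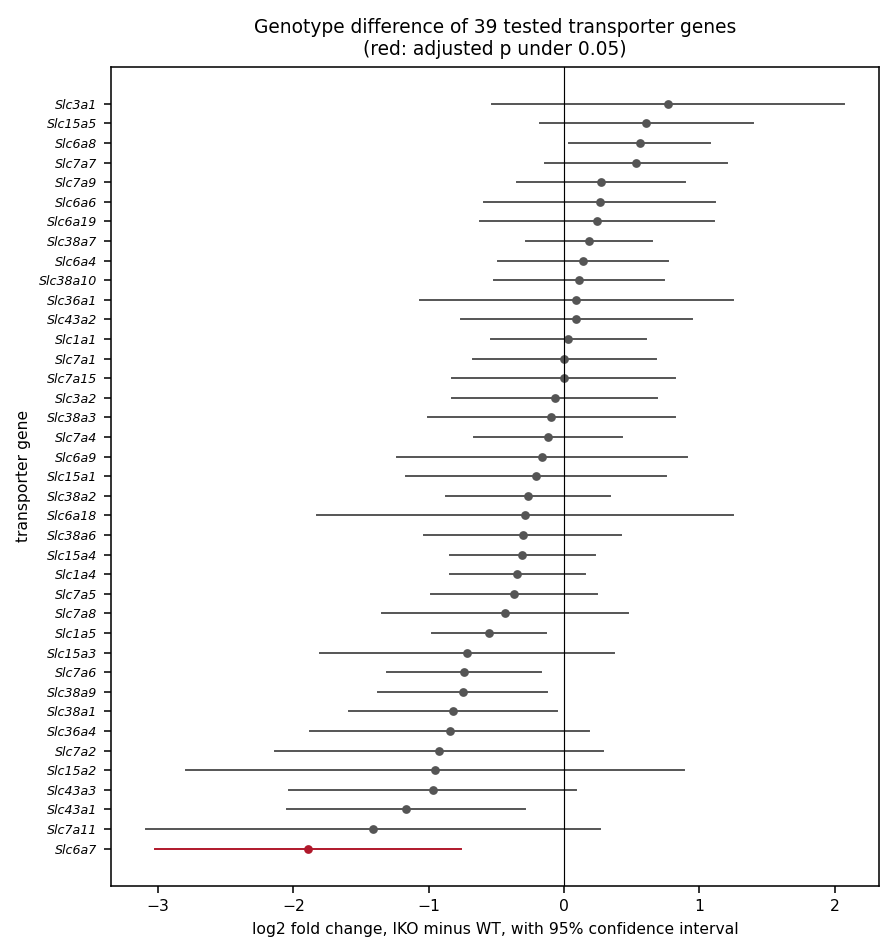
Log2 fold change (IKO minus WT, edgeR) of the 39 tested members with the 95% confidence interval, in order of size. The upper end of the interval is lowest for Slc6a7, in red, and the intervals of 7 members in all exclude 0 before adjustment.

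Slc6a7, a sodium-dependent carrier of proline known mainly from neurons, fell in IKO mice. Its WT levels were 4.22 CPM (WT 6) at the lowest, 7.17 at the median and 26.0 (WT 2) at the highest. Its IKO levels were 0.437 CPM (IKO 4), 1.87 and 7.46 (IKO 6). The groups overlapped through IKO 6, which was above the WT median, while 6 of 7 IKO mice were below it. The log2 fold change was -1.89 (SE 0.53, edgeR adjusted p = 0.0413), a ratio of 0.269 (95% CI 0.123 to 0.590), and the exact two-sided permutation test over samples gave p = 0.00466. The call held without WT 1, WT 5, WT 6 or IKO 6 and was lost without each of the other 10 mice, among them IKO 4 (-1.71, edgeR adjusted p = 0.0576; 0.0062 to 0.0883 over all alternatives). Slc6a7 lies directly behind Cdx1, an epithelial transcription factor gene, on the same strand of chromosome 18, and Cdx1 had a log2 fold change of 0.27 (SE 0.21, edgeR adjusted p = 0.401).

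Brush border uptake was measured on 8 tested genes of 9 listed, and 0 were called in either direction by edgeR, DESeq2 or limma-voom. At an unadjusted p under 0.05 edgeR had 0 higher and 1 lower, where 11.9% of all genes were higher and 18.5% lower. Their median log2 fold change was 0.17, and 0.36 without IKO 4. Slc6a19 had 493 (WT 7), 789 and 1567 CPM (WT 2) as lowest, median and highest in WT mice and 241 (IKO 4), 1226 and 1956 CPM (IKO 3) in IKO mice. Most IKO mice, 5 of 7, were above the WT median, and IKO 2 and IKO 4 were below all WT mice. The log2 fold change of Slc6a19 was 0.24 with a 95% CI of -0.62 to 1.11 (edgeR adjusted p = 0.718), so a change of 2-fold in IKO mice lay inside the interval. Without IKO 4 it was 0.42 (edgeR adjusted p = 0.428).

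Slc15a1 showed the same 2 low mice. In WT mice it had 238 (WT 7), 516 and 1213 CPM (WT 6), and in IKO mice 101 (IKO 4), 671 and 952 CPM (IKO 7). Its log2 fold change was -0.21 (SE 0.45, edgeR adjusted p = 0.783), and -0.02 without IKO 4.

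The subunits of the cystine and dibasic carrier differed in spread. The light chain Slc7a9 had 136 (WT 3), 256 and 364 CPM (WT 2) in WT mice and 108 (IKO 4), 323 and 419 CPM (IKO 3) in IKO mice (log2 fold change 0.27, SE 0.29, edgeR adjusted p = 0.549). The heavy chain Slc3a1 had 33.8 (WT 3), 98.7 and 340 CPM (WT 5) in WT mice and 27.5 (IKO 2), 350 and 506 CPM (IKO 3) in IKO mice, an 18.4-fold range over the 14 mice. The highest WT mice were WT 5, WT 6 and WT 1, and 5 of the 7 IKO mice were above the WT median, with IKO 2 and IKO 4 among the lowest of all. With so wide a range the log2 fold change of Slc3a1 was 0.77 (SE 0.61, edgeR adjusted p = 0.411). Slc3a1 overlaps Prepl on the other strand, a gene with 17819 counts against 59620, and the strand setting of the counting is not given in the sources used here.

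The other uptake genes had smaller differences or wide intervals. Slc36a1, a proton-coupled carrier of small neutral amino acids, ranged over 23.5 (WT 7), 44 and 170 CPM (WT 5) in WT and 9.95 (IKO 4), 81.9 and 169 CPM (IKO 7) in IKO mice, with a log2 fold change of 0.09 (95% CI -1.06 to 1.25, edgeR adjusted p = 0.925). Slc1a1, the carrier of glutamate and aspartate, had 42.8, 57.6 and 98.7 CPM in WT and 26.1, 71.7 and 90.2 CPM in IKO mice (log2 fold change 0.03, SE 0.27). For Slc6a6, the taurine carrier, these levels were 90.1, 185 and 359 CPM in WT and 66.1, 270 and 368 CPM in IKO mice, with a log2 fold change of 0.26 (SE 0.40). The lowest IKO mouse was IKO 4 for all 3 genes, and the groups overlapped.

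Slc1a5, the exchanger of glutamine and other neutral amino acids, was the only uptake gene with an unadjusted p under 0.05. Its WT levels were 30.9 (WT 6), 56.7 and 61.9 CPM (WT 7), and its IKO levels 26.1 (IKO 4), 31.7 and 44.2 CPM (IKO 2). All 7 IKO mice were below the WT median, but WT 5 and WT 6, at 31.0 and 30.9 CPM, lay among the IKO values. The log2 fold change of -0.55 (SE 0.20) missed the threshold after adjustment (edgeR adjusted p = 0.0833; exact two-sided permutation test, p = 0.0280).

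**Figure D3:**
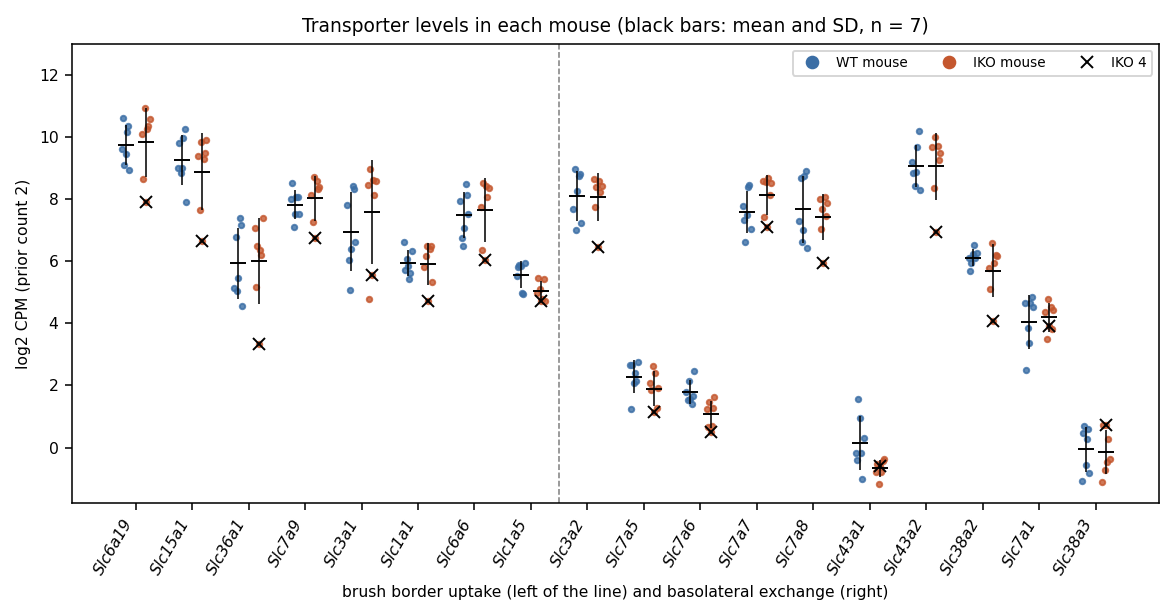
Log2 CPM of 8 uptake genes (left of the line) and 10 basolateral genes (right) in each mouse, WT in blue and IKO in orange, with bars for the mean and SD of 7 mice and crosses for IKO 4. The genotypes overlap for all 18 genes, and IKO 4 is the lowest of the 14 mice in 7 of 8 uptake genes and 6 of 10 basolateral genes.

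Basolateral exchange and efflux was measured on 10 genes. By edgeR, DESeq2 and limma-voom 0 were called, and the edgeR median log2 fold change was -0.18 with or without IKO 4. At an unadjusted p under 0.05 edgeR had 0 higher and 2 lower, where 11.9% of all genes were higher and 18.5% lower. The heavy chain Slc3a2 had 129 (WT 3), 310 and 499 CPM (WT 2) in WT and 87.3 (IKO 4), 333 and 405 CPM (IKO 1) in IKO mice (log2 fold change -0.07, SE 0.36; 0.10 without IKO 4). Its light chain Slc7a7, which exchanges dibasic for neutral amino acids, had 98.3 (WT 3), 181 and 348 CPM (WT 6) in WT and 137 (IKO 4), 363 and 414 CPM (IKO 5) in IKO mice. Of the IKO mice 5 were above the WT median and 4 above the highest WT mouse, and the log2 fold change of Slc7a7 was 0.54 (SE 0.32, edgeR adjusted p = 0.260). Slc7a7 overlaps Oxa1l on the other strand, with 12352 counts against 66740. Slc7a8, a light chain for neutral amino acids, had 85.6 (WT 7), 156 and 484 CPM (WT 6) in WT and 61.6 (IKO 4), 203 and 268 CPM (IKO 5) in IKO mice (log2 fold change -0.44, SE 0.43).

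The efflux carrier Slc43a2, which passes neutral amino acids without a partner, was at 310 (WT 7), 473 and 1171 CPM (WT 6) in WT and at 121 (IKO 4), 722 and 1016 CPM (IKO 3) in IKO mice. Its log2 fold change was 0.09 (SE 0.40, edgeR adjusted p = 0.898). Slc38a2, a sodium-coupled carrier of small neutral amino acids, had 50.8, 69.0 and 92.2 CPM in WT and 16.6 (IKO 4), 62.1 and 95.3 CPM in IKO mice (log2 fold change -0.27, SE 0.28; -0.10 without IKO 4). Slc7a1, a carrier of dibasic amino acids, had 5.54 (WT 2), 22.9 and 28.7 CPM in WT and 11.2, 20.7 and 27.2 CPM in IKO mice, with a 95% CI of -0.67 to 0.68 around a log2 fold change of 0.00. Its groups overlapped over nearly their whole range.

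The remaining basolateral genes had low levels. Slc7a5, the light chain of growing cells for large neutral amino acids, had 2.25, 5.18 and 6.65 CPM in WT and 2.08, 3.67 and 6.04 CPM in IKO mice (log2 fold change -0.37, SE 0.29). Slc7a6, a relative of Slc7a7, had 2.51, 3.06 and 5.38 CPM (WT 7) in WT and 1.31 (IKO 4), 2.28 and 2.95 CPM in IKO mice, with all 7 IKO mice below the WT median. The log2 fold change of Slc7a6 was -0.74 (SE 0.27, edgeR adjusted p = 0.0852; exact two-sided permutation test, p = 0.00466). Slc43a1, an efflux carrier related to Slc43a2, had 0.388, 0.785 and 2.85 CPM (WT 3) in WT and 0.333, 0.547 and 0.663 CPM in IKO mice (log2 fold change -1.17, SE 0.41, edgeR adjusted p = 0.0811). Slc38a3, a glutamine carrier, was at most 1.53 CPM, and its log2 fold change was -0.09 (SE 0.43).

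Within a mouse, the ratio of partner genes does not move with the scaling of libraries, so pairs were compared by exact two-sided permutation tests over samples. Of 6 pairs tested, 5 are given, with Benjamini-Hochberg adjustment over all 6. The FPKM ratio of Slc7a9 to Slc3a1 was 0.677 (WT 5), 1.61 and 4.80 (WT 2) in WT and 0.692 (IKO 1), 0.843 and 4.82 (IKO 2) in IKO mice. The ratio was high in WT 2, WT 3 and IKO 2 and near 1 or below in WT 1, WT 5, WT 6 and 5 IKO mice, so the spread lay within both genotypes. The log2 ratio differed by -0.43 (95% CI -1.66 to 0.82, exact permutation p = 0.471, adjusted p = 0.617).

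The ratio of Slc7a7 to Slc3a2 was 0.339 (WT 2), 0.822 and 1.13 (WT 1) in WT and 0.855 (IKO 2), 1.12 and 1.67 (IKO 4) in IKO mice. All 7 IKO mice were above the WT median, and WT 1 and WT 7 lay among the IKO values. The log2 difference was 0.59 (95% CI 0.12 to 1.13), with an exact permutation p of 0.0117 and an adjusted p of 0.0699. Without WT 1 the difference was 0.70 (exact permutation, adjusted p = 0.0105) and without IKO 4 it was 0.50 (exact permutation, adjusted p = 0.199), the lowest and highest p over the alternatives.

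The other 3 pairs had adjusted p of 0.572 to 0.617 by the same exact test. For Slc7a8 to Slc3a2 the log2 difference was -0.20 (95% CI -0.57 to 0.20), and the ratio was 0.292 to 0.757 in WT but 0.411 to 0.498 in IKO mice. The IKO ratios lay inside the WT range. For Slc7a5 and Slc7a6 to Slc3a2 the differences were -0.34 and -0.69, and both intervals included 0.

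**Figure D4:**
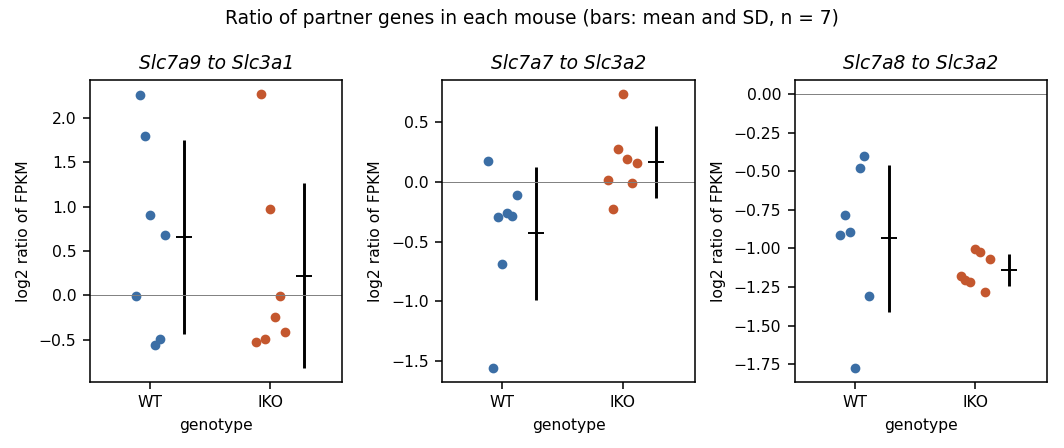
Log2 ratio of the FPKM of partner genes in each of 7 WT and 7 IKO mice, with bars for the mean and SD. Slc7a9 to Slc3a1 spreads over both genotypes, Slc7a7 to Slc3a2 exceeds its WT median in all 7 IKO samples, and the Slc7a8 to Slc3a2 values of IKO mice lie inside the WT range.

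Among the members with other roles, those outside the uptake and basolateral lists, Slc6a8 first, are named after their values were seen. Slc6a8 had 486 (WT 7), 1118 and 1882 CPM (WT 2) in WT and 1331 (IKO 2), 1659 and 1931 CPM (IKO 3) in IKO mice. All 7 IKO mice were above the WT median, and IKO 4 did not stand apart for this gene, with 1781 CPM. The log2 fold change of Slc6a8 was 0.56 (SE 0.25, edgeR adjusted p = 0.141; exact two-sided permutation test, p = 0.00991), and limma-voom with sample quality weights called it (0.68, adjusted p = 0.0321; 0.0321 to 0.236 over the alternatives). The SD of its log2 level was 0.62 in WT and 0.18 in IKO mice without IKO 4.

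Slc6a8 was the only tested member with all 7 IKO mice above the WT median, 2.56% of members against 11.8% of all genes. All 7 IKO mice were below the WT median for 6 members, Slc1a4, Slc1a5, Slc38a1, Slc38a9, Slc43a1 and Slc7a6, which is 15.4% of members against 15.8% of all genes, a share near the background. Slc38a1, a glutamine carrier, had 4.96 (WT 2), 24.1 and 42.5 CPM (WT 4) in WT and 5.57 (IKO 4), 14.6 and 18.5 CPM in IKO mice (log2 fold change -0.82, SE 0.36, edgeR adjusted p = 0.143). It was called only without WT 2, its lowest WT mouse (-1.0, edgeR adjusted p = 0.0409; 0.0409 to 0.372 over the alternatives). Slc38a9, an arginine sensor of the lysosome, had 7.28, 9.73 and 13.6 CPM in WT and 1.64 (IKO 4), 6.20 and 8.04 CPM in IKO mice (log2 fold change -0.75, SE 0.29, edgeR adjusted p = 0.106). Slc1a4, a carrier of serine, alanine and cysteine, had 1.99 to 3.60 CPM in WT and 1.55 to 2.84 CPM in IKO mice (log2 fold change -0.34, SE 0.24, edgeR adjusted p = 0.330). The 8 markers of crypt and cycling cells summed to 159 to 441 CPM (median 354) in WT and 167 to 303 CPM (median 216) in IKO mice, their median log2 difference was -0.59, and the part of such cells in the levels of these 6 genes was not tested.

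By family, 0 genes passed in edgeR outside Slc6a, and DESeq2 and limma-voom made no call outside that family either. The unadjusted count outside Slc6a was 0 higher and 5 lower, in Slc1a, Slc7a, Slc38a and Slc43a. Over all genes 11.9% were higher and 18.5% lower at an unadjusted p under 0.05, and the median log2 fold change was -0.09. The 5 peptide transporters of the Slc15a family had 1 fitted difference above 0 and 4 below, with a median log2 fold change of -0.31 (-0.17 without IKO 4). For the 7 tested members of Slc38a the median was -0.27 (-0.16 without IKO 4), for the 10 of Slc7a -0.24 (-0.14) and for the 7 of Slc6a 0.14 (0.23). Of lysosomal and endosomal carriers, 5 of 6 listed were tested, 0 were called by these tools, 1 was lower at an unadjusted p under 0.05, and the median was -0.72 (-0.59 without IKO 4). Slc7a11, the cystine and glutamate exchanger, reached 8.92 CPM in WT 7 and at most 1.87 CPM in IKO mice, with a log2 fold change of -1.41 (SE 0.79, edgeR adjusted p = 0.236), which was -0.33 without WT 7 (edgeR adjusted p = 0.781; 0.188 to 0.781 over the mice left out).

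The 15 tested members not yet described had log2 fold changes from -0.97 (Slc43a3) to 0.61 (Slc15a5), edgeR adjusted p from 0.199 to 0.997 and overlapping groups. Of these, 3 were abundant. Slc7a15, a carrier of the light chain family, had 74.0 (WT 7), 125 and 389 CPM (WT 2) in WT and 65.0 (IKO 2), 180 and 263 CPM in IKO mice. The level of Slc6a4, which takes up serotonin, was 69.1 (WT 3), 93.9 and 233 CPM (WT 6) in WT and 78.5 (IKO 2), 151 and 191 CPM in IKO mice. Slc38a10, a relative of the glutamine carriers, had 49.3 (WT 3), 90.1 and 135 CPM (WT 6) in WT and 31.6 (IKO 4), 112 and 143 CPM in IKO mice. For all 3 genes 5 of 7 IKO mice were above the WT median and IKO 2 or IKO 4 was the lowest IKO mouse.

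Less abundant members differed in how even they were. Slc38a7, a glutamine carrier of the lysosome, was the most even in WT mice, with 11.4 to 12.9 CPM, and had 5.47 (IKO 4) to 21.4 CPM (IKO 5) in IKO mice. Slc6a18, a neutral amino acid carrier related to Slc6a19, had 0.419 (WT 5) to 7.47 CPM (WT 2) in WT and 0.175 (IKO 1) to 7.29 CPM (IKO 6) in IKO mice, a 42.6-fold range over the 14. Slc15a2, the peptide carrier best known from the kidney, had 0 (WT 2) to 8.56 CPM (WT 3) in WT and 0.328 (IKO 4) to 5.51 CPM (IKO 6) in IKO mice. The lysosomal peptide and histidine carriers Slc15a3 and Slc15a4 had 0.534 to 5.73 and 6.13 to 11.4 CPM in WT and 0.776 to 1.75 and 2.51 to 9.60 CPM in IKO mice. The other members of this set were Slc15a5, Slc36a4, Slc38a6, Slc43a3, Slc6a9, Slc7a2 and Slc7a4, all at 0 to 17.8 CPM.

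The 7 members under the filter had few counts. Slc6a14, a carrier of neutral and cationic amino acids, had 490 counts in WT 1, 208 in WT 7, 176 in WT 3 and 233 in IKO 6, and at most 9 in each of the other 10 mice. High and near-absent mice thus occurred in both genotypes. Slc6a17, a carrier of synaptic vesicles, had 243 of its 282 counts in WT 4 and 28 in IKO 1, and Slc7a14, a lysosomal carrier of neurons, had 161 of 181 in WT 4 and 14 in IKO 1. The 8 markers of enteric neurons and glia summed to 218 CPM in WT 4, 20.3 in IKO 1 and 0.328 to 11 in the others, and their part in these 2 genes was not tested.

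Slc6a3, the dopamine carrier, was called by DESeq2 but not by edgeR. Its counts were 5, 10, 0, 5, 3, 10 and 3 in WT 1 to WT 7 and 28, 33, 2, 2, 63, 26 and 70 in IKO 1 to IKO 7. As many as 5 IKO mice were above every WT mouse, and IKO 3 and IKO 4 were not. The gene was too low for the edgeR filter. DESeq2 gave a log2 fold change of 2.86 (adjusted p = 0.0022), and edgeR without a filter gave 2.83 (adjusted p = 0.0671). With some mice left out Slc6a3 passed the edgeR filter, which at these counts it could do only through the IKO mice, so those fits are not given. Slc1a2, Slc1a3 and Slc36a2, with 102, 148 and 121 counts, had most of them in WT mice, and DESeq2 gave adjusted p of 0.198, 0.563 and 0.452.

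Mice of the same genotype differed more in these genes than in most others. The median SD of log2 CPM over the 39 members was 0.73 in WT mice, against 0.50 over all genes. For IKO mice it was 0.73 against 0.47, and without IKO 4 it was 0.49 against 0.42. For the 17 members with at least 32 CPM on average the WT median SD was 0.68, against 0.41 for 4471 genes at that level. The summed CPM of all members ran from 3019 (WT 7) over 4708 to 8137 (WT 6) in WT and from 3073 (IKO 4) over 7015 to 9058 (IKO 3) in IKO mice.

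IKO 4 was the lowest of the 14 mice for 22 of 39 members, 56.4%, against 17.6% of all genes. Relative to the other 6 IKO mice its median log2 difference was -1.39 over the members and -2.05 over the uptake genes, with all 8 below 0, against -0.01 over all genes. Against the 5 IKO mice other than IKO 4, IKO 2 was low as well, at -0.77 over the members and -1.67 over the uptake genes against 0.01 over all genes. Without IKO 4 the log2 fold changes of the 39 members moved by -0.16 (Slc38a3) to 0.20 (Slc7a11), with 34 moved upwards, and those of Slc3a2 and Slc7a15 changed sign. Without WT 3 they moved by -0.21 to 0.41 and without WT 4 by -0.15 to 0.29. In each of these 3 fits 0 of the 39 members were called. The lowest IKO mouse was IKO 2 or IKO 4 for all 17 abundant members. Epithelial genes did not move together in these mice. The 9 enterocyte genes summed to 18032 CPM in IKO 4 and 20473 in IKO 2, the lowest sums among the IKO mice but above the WT median of 16364. Epcam, an epithelial adhesion gene, was low, at 505 CPM in IKO 4 and 1095 in IKO 2 against 2830 to 3166 in the other IKO mice. Vil1, a structural gene of the microvilli, was highest of all mice in IKO 4 (5433 CPM) and lowest of the IKO mice in IKO 2 (3006 CPM), and Fabp1, a fatty acid binding protein, was highest in IKO 2 (7949 CPM). The part of these genes, and of the mitochondrial share of IKO 4, in the member levels was not tested.

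**Figure D5:**
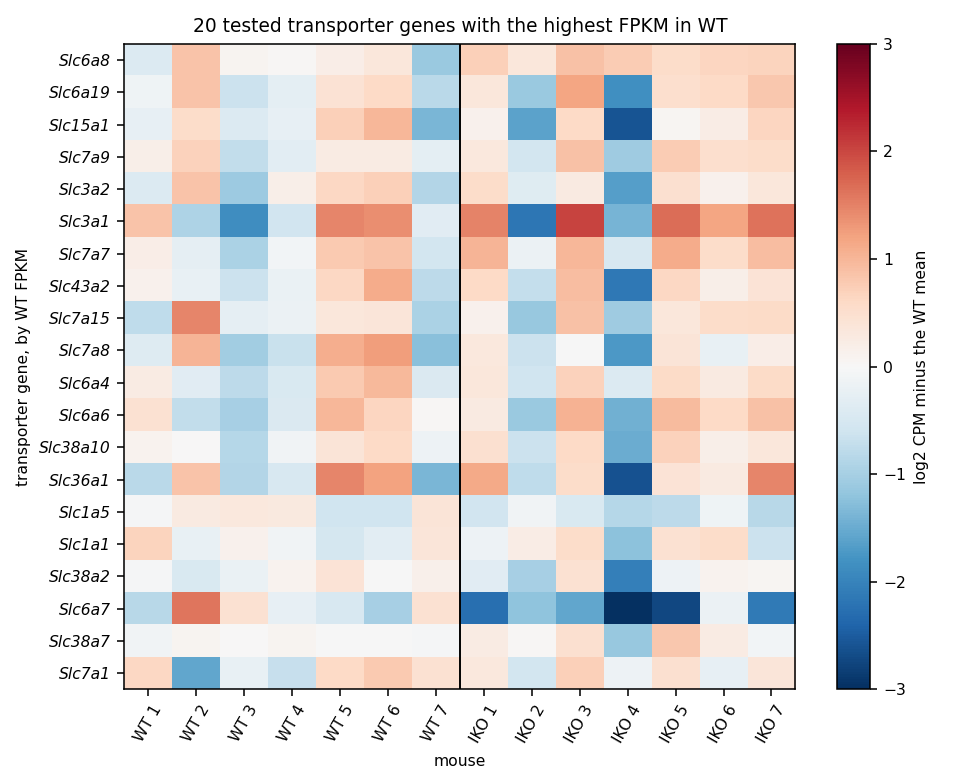
Log2 CPM minus the WT mean for the 20 tested members with the highest WT FPKM, in each of the 14 mice (red above, blue below, with colours that stop at 3 in both directions). IKO 4 and IKO 2 are blue in most rows, as are WT 3 and WT 7 in less depth, and WT 5 and WT 6 are red for most uptake and basolateral genes.

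In WT mice the high and low samples recurred as well. WT 5 or WT 6 was the highest WT mouse for 10 of the 17 abundant members, among them Slc15a1, Slc3a1, Slc36a1, Slc7a7, Slc7a8 and Slc43a2, and WT 3 or WT 7 was the lowest for 14 of 17. These WT mice were picked after their values were seen. Shares over all genes at that level are not given for these counts, nor for that of IKO 2 and IKO 4 above. Fabp6, the bile acid binding protein of the distal ileum, was at 186 CPM in WT 5 and 192 in WT 6 against 1060 to 7661 in the other WT mice. Lct, the lactase gene of the more proximal intestine, was at 1320 and 1622 CPM in WT 5 and WT 6 against 121 to 1244 in the others. In IKO mice Fabp6 was at 24.7 CPM in IKO 1, 127 in IKO 2 and 580 in IKO 7 against 2215 to 6143 in the other 4. Lct was at 33.9 CPM in IKO 4, 215 in IKO 2 and 299 to 654 in the other 5, so low Fabp6 went with low Lct in IKO 2 and with higher Lct in IKO 1 and IKO 7. Lct is only 1 of 6 listed markers of the proximal small intestine. Their sum was highest of all mice in IKO 2, at 8218 CPM, where Fabp1, also listed, had 7949 CPM. In the other IKO mice the sum was 1652 to 5952 CPM, and in WT mice 306 to 2999 CPM. The part of the position along the intestine in the member levels was not tested.

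Genes that work with the members were compared from 4 lists. Of 13 tested partners and carriers outside the families, 1 was called higher and 0 lower, 7.69% against 8.67% of all genes called. This was Slc9a3r1, a scaffold protein of the brush border, with 881 to 2414 CPM in WT and 2796 to 4333 CPM in IKO mice, no overlap and a log2 fold change of 0.80 (SE 0.24, edgeR adjusted p = 0.0485). Its call held only without WT 2 and was lost without each of the other 13 mice (edgeR adjusted p from 0.0050 to 0.131 over the alternatives).

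The proline carrier Slc6a20a had 135, 185 and 273 CPM in WT and 26.7 (IKO 4), 147 and 181 CPM in IKO mice, with a log2 fold change of -0.66 (SE 0.35, edgeR adjusted p = 0.215). Slc16a10, a basolateral carrier of aromatic amino acids, had 78.1, 199 and 394 CPM in WT and 24.0 (IKO 4), 132 and 185 CPM in IKO mice. All 7 IKO mice were below the WT median for both Slc6a20a and Slc16a10, a pattern found in 15.8% of all genes. The log2 fold change of Slc16a10, -0.95 (SE 0.41), had an edgeR adjusted p of 0.137.

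Of 20 genes of the ATF4 response, which raises amino acid transport and synthesis when amino acids are short, 2 rose and 0 fell, 10% against 8.67% of all genes called and thus near the background. They were Chac1, which degrades glutathione, from a WT median of 1.52 to an IKO median of 4.24 CPM (log2 fold change 1.35, SE 0.34, edgeR adjusted p = 0.0283), and Sesn2, a leucine sensor, from 12.1 to 18.0 CPM (0.74, SE 0.19, edgeR adjusted p = 0.0298). Atf4 itself had a log2 fold change of 0.21 (SE 0.23, edgeR adjusted p = 0.554), and Asns, its asparagine synthetase target, 0.53 (SE 0.21, edgeR adjusted p = 0.106). Chac1 was not called without WT 7, IKO 1, IKO 5 or IKO 7, nor Sesn2 without WT 4, WT 7, IKO 4 or IKO 5. The list's median was 0.11, against -0.09 over all genes.

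Of 17 tested genes of a peptidase list, which also holds Treh, the enzyme that splits trehalose, 1 rose and 0 fell, 5.88% against 8.67% of all genes. Xpnpep1, which cleaves peptides with proline, went from a median of 464 in WT to 902 CPM in IKO mice (log2 fold change 0.77, SE 0.21, edgeR adjusted p = 0.0393), and held only without WT 5, WT 6, IKO 2 or IKO 6. Of 25 tested enzymes of amino acid metabolism, 3 rose and 0 fell, 12% against 8.67% of all genes. The aminotransferases Got1 and Gpt did not overlap between the genotypes, 8% of the list against 3.1% of all genes, with 52.8 to 149 CPM against 163 to 250 for Got1 (log2 fold change 1.06, SE 0.22, edgeR adjusted p = 0.0106) and 174 to 468 against 475 to 599 for Gpt (0.79, SE 0.21, edgeR adjusted p = 0.0321). Ido1, which degrades tryptophan, had 20.3 to 50.9 CPM in WT and 42.2 to 145 CPM in IKO mice (1.28, SE 0.29, edgeR adjusted p = 0.0161). Got1 and Ido1 were called whichever mouse was left out, and Gpt was not called without WT 1, WT 3, WT 4, WT 7, IKO 1, IKO 5 or IKO 7.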

How the data were processed

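RNA of the ileum mucosa of 7 WT and 7 IKO mice was extracted with Trizol, and libraries were made from 1 µg with a NEBNext Ultra kit. Per the submitters' processing notes the authors used HISAT2 2.0.5 and the build mm10, featureCounts 1.5.0-p3 and DESeq2 1.16.1. The deposited counts are whole numbers of reads per gene without normalization. The deposited FPKM equal counts per kilobase over the DESeq2 size factor times 1 constant (100% of 213603 values within 1%). Genotypes come from the sample titles, and columns named KO were read as IKO. Counts on a strand, if any setting was used, are not given in the sources used here.

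Counts were filtered with filterByExpr, scaled with TMM and fitted with edgeR 4.0.16 (glmQLFit, glmQLFTest; R 4.3.3) with a term for genotype, and p were adjusted by Benjamini-Hochberg over 13846 genes. Log2 CPM add a prior count of 2. Exact two-sided permutation tests cover all 3432 divisions of the mice, where the smallest p is 0.000583. The members and lists were chosen with earlier results of these data known. Values by sample are given for called members, tested uptake and basolateral genes, at most 4 called genes of each other list, Ncor1, Slc6a20a and Slc16a10. Results for 1 gene of these lists and its pair are not reported here. Alternatives were DESeq2 1.42.0, RLE factors, library sizes without mitochondrial genes, a minimum of 10 counts in each sample, no filter, the sample number as a block, limma 3.58.1 on log2 FPKM with pseudocounts of 1 and 0.1, limma-voom with sample quality weights, and mice left out. The fit was run on simulated counts, in which outlier libraries entered only through the dispersion of each gene. Shifts shared by many genes of a mouse, as in IKO 4, were not covered by that simulation. Library depth of 14749669 to 21557468 counts limits genes under about 1 CPM, and counting error is only part of the spread.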

Additional observations from a re-analysis of the deposited data

Results flagged for a closer look

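In 3 of 90 groups of 7 mice, the lowest or highest mouse lay far from the others by Dixon's test at the 95% level, where chance would flag 4.5. Slc3a2 was low in IKO 4 (ratio of gap to range 0.579), Slc38a6, a carrier related to the glutamine transporters, was high in WT 2 (0.715), and Slc7a2, a carrier of dibasic amino acids, was low in WT 3 (0.572). Slc7a2 had 0 counts in WT 3 and 7 to 38 in the other WT mice, so its value in WT 3 is the floor of the log2 scale.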

How the results depend on the processing

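No label says that the sample numbers of the titles pair the mice. The correlation of same-numbered mice in their deviations from the group means was -0.31 to 0.23 over 7 pairs, and 1 of them, number 2, matched its own number best. Other differences between libraries enter these correlations too, so they cannot decide whether the mice were paired. With the replicate block, 0 members were called (0 lower) and 362 of all genes, against 1 and 1200 as reported, and Slc6a7 had a log2 fold change of -2.08 (edgeR adjusted p = 0.0541), Slc43a2 -0.0076, Slc7a15 0.104 and Slc1a1 -0.032. Without a filter 0 members were called (0 lower, Slc6a7 -1.85, edgeR adjusted p = 0.0729, Slc7a15 0.040), and all genes called were 508. With at least 10 counts in every sample 0 were called (0 lower), since Slc6a7 was not tested, and Slc1a1 was at -0.034 and Slc7a1 at -0.057. DESeq2 called 2 members (1 higher), with Slc7a15 at 0.031, and 2444 of all genes. The voom fit with sample weights called 2 (1 higher) and 1889 of all genes, with Slc3a2 at 0.084, Slc7a15 at 0.404, Slc7a1 at -0.185, Slc38a6 at 0.054 and Slc6a18 at 0.137. RLE factors put Slc7a15 at 0.022, and libraries without mitochondrial genes put Slc7a1 at -0.00073. With log2 FPKM, Slc3a2 was at 0.0036 and 0.0034 and Slc7a15 at 0.076 and 0.077 for pseudocounts of 1 and 0.1. Except for Slc6a7 these are genes whose difference was not called and changed sign, with the cause not tested.

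Of the 39 tested members, leaving out mice gave 0 called higher and 0 to 1 lower, and 515 to 1371 of all genes were called. Slc6a3 is not among the 39, and its fits with mice left out are not counted here, for the reason given above. Without WT 4 and IKO 4 together, 0 of the 39 tested members and 606 of all genes were called. Log2 fold changes ran from -2.38 to -1.46 for Slc6a7, -0.076 to 0.347 for Slc43a2, -0.201 to 0.095 for Slc3a2, -0.165 to 0.372 for Slc7a15, -0.166 to 0.394 for Slc36a1, -0.081 to 0.173 for Slc1a1 and -0.155 to 0.137 for Slc7a1. They ran from -0.517 to 0.023 for Slc38a6, -0.212 to 0.030 for Slc7a4, -0.360 to 0.024 for Slc6a9, -0.888 to 0.142 for Slc6a18 and -0.346 to 0.050 for Slc38a3. The log2 ratio differed by 0.407 to 0.696 for Slc7a7 to Slc3a2. In the 24 alternative fits, 36 of the 39 tested members were never called. Ncor1 kept its call in all of them. At 7 mice a group and with these spreads, the intervals of 5 of 8 uptake genes include changes of 2-fold.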
